A study of Mus musculus with 9 samples.

Results

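The 48 genes described here encode proteins that copy DNA in S phase or carry a cell through mitosis. They were taken by gene name from a list drawn up with earlier results of these data known. Of the 44806 entries in the deposited count table, 47 carried one of these names, on 16 chromosomes. All 47 passed the filter on low counts and were tested among 16596 genes. Tyms, the thymidylate synthase gene, was not analysed here.

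The tumours were grown from MB49, a mouse bladder cancer cell line, and their labelled genotype in all 3 groups was overexpression of HER2, a receptor tyrosine kinase. There were 3 libraries from Lipo-TriTE tumours, 3 from Lipo-BiTE tumours and 3 from PBS tumours. BiTE is the usual short name for a bispecific antibody construct that joins a T cell to a target cell, and TriTE for a form with a further binding arm; the labels spell out neither and give no antigen, dose, treatment time, mouse strain or age. No group treated with a carrier alone was analysed here. The count columns used for PBS are headed untreated, and their match to the PBS labels is an inference. Whether each library is a different mouse is not stated, and the p-values then reflect only how these libraries vary, which may be technical.

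The series' design text names sorted CD3+ T cells, whereas the labels and the extraction protocol describe whole frozen tumour. Markers of several cell types were present in every group. Summed levels of 9 T cell markers were 863 to 1472 CPM (counts scaled to a common library total after TMM) in Lipo-TriTE, 197 to 374 CPM in Lipo-BiTE and 39.8 to 50.004 CPM in PBS libraries. The 5 B cell markers summed to 321 to 890 CPM in Lipo-TriTE, 9.14 to 16.3 CPM in Lipo-BiTE and 5.87 to 10.1 CPM in PBS libraries, where Cd79a was at 0 in PBS 2. The 5 macrophage and monocyte markers with an entry summed to 384 to 456 CPM in Lipo-TriTE, 435 to 1298 CPM in Lipo-BiTE and 75.3 to 83.4 CPM in PBS, and the 4 neutrophil markers to 1196 to 3978, 1054 to 5783 and 122 to 272 CPM in the same order of groups. The 5 epithelial markers, led by the keratins Krt8 and Krt18, summed to 395 to 676 CPM in Lipo-TriTE, 609 to 839 CPM in Lipo-BiTE and 900 to 973 CPM in PBS libraries. The 6 fibroblast markers summed to 883 to 1388 CPM in Lipo-TriTE, 1300 to 2212 CPM in Lipo-BiTE, where Lum was at 0 in Lipo-BiTE 1 and Lipo-BiTE 2, and 1978 to 3014 CPM in PBS. The 3 endothelial markers summed to 145 to 221, 209 to 235 and 132 to 156 CPM in the same order, but moved in opposite directions. Cdh5 had 94.0, 84.4 and 73.8 CPM in Lipo-TriTE and 125, 150 and 149 CPM in PBS libraries. Pecam1 had 117, 66.2 and 68.3 CPM in Lipo-TriTE and 5.56, 5.18 and 5.34 CPM in PBS. In the edgeR test, 9 of 9 T cell, 5 of 5 macrophage and 4 of 4 neutrophil markers were higher in each treated group than in PBS, as were 5 of 5 B cell markers in Lipo-TriTE and 0 of 5 in Lipo-BiTE. Of the 6 fibroblast markers 3 were lower in Lipo-TriTE and 4 in Lipo-BiTE, and of the 5 epithelial markers 2 were lower and 1 higher in Lipo-TriTE and 1 higher in Lipo-BiTE. The 3 endothelial markers gave 2 higher and 1 lower in Lipo-TriTE, and 1 higher in Lipo-BiTE. The part of these shifts in the results on replication and mitosis genes was not tested. Library totals were 13152783 to 20273548 counts, so that 3 counts correspond to 0.145 to 0.236 CPM.

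As background, DNA replication begins when the loading factors Cdc6 and Cdt1 place the Mcm2-7 helicase on origins in G1, and the helicase is switched on in S phase by Cdc45 and the GINS complex. Mitosis is driven by Cdk1 with its B-type cyclins and by the Aurora and Polo kinases, while the spindle checkpoint holds back the anaphase-promoting complex (APC/C) until chromosomes are attached. Transcription of these genes comes in waves: E2F factors act on many replication genes at the start of S phase, and the MuvB complex, with B-Myb (Mybl2) and then Foxm1, acts on mitotic genes through promoter elements called CHR, often near CCAAT boxes bound by NF-Y.

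Promoter letters differed between the replication genes and the mitosis genes. RefSeq windows (GRCm38.p6, mouse) of 300 bases, 250 before and 50 after the annotated start, were at hand for 38 of the 47 genes. Exact letters were searched on both strands. The E2F search used the letters TTCCCGC and the letters TTGGCGC as well as the letters TTCGCGC and the letters TTGCCGC. The CHR search used the letters TTTGAA and the letters TTCGAA. The NF-Y search used the letters CCAAT. A gene with several windows, such as Mcm7, counted once if any of them held a match. With a window, 10 of 14 replication genes (origin licensing, fork, nucleotide supply and uracil repair) had an E2F match. So did 1 of 18 mitosis genes (kinases and checkpoint, APC/C, centromere, motors and spindle, chromosome coat and topoisomerase). A CHR match was found for 3 of the 14 replication genes and for 14 of the 18 mitosis genes. Over all 27025 genes with a window the shares were 10.9% for E2F, 21.7% for CHR and 41.1% for NF-Y, and over the 10391 tested genes with a window 18.8%, 16.6% and 42%. Over the 38 genes the shares were 34.2%, 50% and 71.1%. A match is a run of letters and not a measured binding site.

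The 6 windows below are shown because they carry these letters in genes whose levels are given further on: Mcm6 and Mcm3, which fell in both treated groups, hold E2F letters and no CHR, while Top2a, Ube2c and Aurka, which fell in Lipo-TriTE, and Kif23, which passed in no comparison, hold CHR letters and no E2F. Capitals mark the letters searched, on either strand, so that ATTGG is CCAAT read on the other strand. Neighbouring matches overlap in places, as at both long E2F runs of Mcm6, and were counted separately. The letters TTCGAA read the same on both strands. Each window is printed on the sense strand of its gene, in the RefSeq build, which is not the strain assembly of the count table's gene models. The windows are chr1:128359656-128359955 (minus strand) for Mcm6, chr1:20820263-20820562 (minus) for Mcm3, chr11:99024140-99024439 (minus) for Top2a, chr2:164769679-164769978 (plus) for Ube2c, chr2:172370521-172370820 (minus) for Aurka and chr9:61946750-61947049 (minus) for Kif23.
Mcm6: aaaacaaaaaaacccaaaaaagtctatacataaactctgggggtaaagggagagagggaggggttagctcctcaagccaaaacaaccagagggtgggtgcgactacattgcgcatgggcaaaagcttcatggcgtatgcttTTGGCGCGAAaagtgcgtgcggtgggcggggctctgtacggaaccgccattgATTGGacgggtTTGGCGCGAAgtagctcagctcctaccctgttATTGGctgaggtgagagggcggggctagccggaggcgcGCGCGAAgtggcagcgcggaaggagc
Mcm3: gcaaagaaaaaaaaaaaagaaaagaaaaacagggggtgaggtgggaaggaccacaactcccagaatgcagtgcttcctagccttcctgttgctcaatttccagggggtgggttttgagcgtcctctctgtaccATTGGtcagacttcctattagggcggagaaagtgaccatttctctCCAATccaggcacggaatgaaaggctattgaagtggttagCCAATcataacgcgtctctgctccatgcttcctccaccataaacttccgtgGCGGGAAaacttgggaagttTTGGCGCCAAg
Top2a: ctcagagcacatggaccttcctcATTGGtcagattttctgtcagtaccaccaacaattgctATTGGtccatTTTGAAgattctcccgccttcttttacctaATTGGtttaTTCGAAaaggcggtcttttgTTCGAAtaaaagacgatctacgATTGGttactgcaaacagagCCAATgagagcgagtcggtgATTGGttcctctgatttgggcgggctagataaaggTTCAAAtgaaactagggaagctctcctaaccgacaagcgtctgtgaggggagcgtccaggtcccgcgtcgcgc
Ube2c: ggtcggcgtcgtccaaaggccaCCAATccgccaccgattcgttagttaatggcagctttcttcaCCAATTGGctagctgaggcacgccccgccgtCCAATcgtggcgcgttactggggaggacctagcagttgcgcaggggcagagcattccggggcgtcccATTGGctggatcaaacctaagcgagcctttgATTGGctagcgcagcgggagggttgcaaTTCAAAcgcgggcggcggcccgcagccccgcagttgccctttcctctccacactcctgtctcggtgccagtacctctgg
Aurka: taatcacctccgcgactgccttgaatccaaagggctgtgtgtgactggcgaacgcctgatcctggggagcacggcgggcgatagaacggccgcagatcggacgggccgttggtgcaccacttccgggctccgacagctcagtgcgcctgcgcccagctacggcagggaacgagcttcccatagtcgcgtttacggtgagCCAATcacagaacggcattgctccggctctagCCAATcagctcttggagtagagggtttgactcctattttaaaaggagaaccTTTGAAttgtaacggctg
Kif23: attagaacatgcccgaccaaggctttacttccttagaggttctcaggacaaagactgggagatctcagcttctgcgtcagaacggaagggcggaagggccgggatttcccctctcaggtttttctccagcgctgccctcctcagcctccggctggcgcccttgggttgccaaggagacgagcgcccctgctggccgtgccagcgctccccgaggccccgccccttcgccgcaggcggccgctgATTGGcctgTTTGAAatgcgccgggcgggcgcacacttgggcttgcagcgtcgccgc

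Levels of the replication and mitosis genes were lower in both treated groups than in PBS. Of the 47, 28 fell and 0 rose in Lipo-TriTE against PBS, where 14.8% of all tested genes fell and 18.9% rose. In Lipo-BiTE against PBS 14 of the 47 fell and 0 rose, where 3.22% of all tested genes fell and 13.8% rose. A call is an adjusted p under 0.05 in edgeR's quasi-likelihood test over all tested genes. The median log2 fold change of the 47 was -0.60 in Lipo-TriTE against PBS, beside 0.00 over all tested genes, and -0.47 in Lipo-BiTE against PBS, beside -0.02. Estimates were below 0 for 47 of 47 in Lipo-TriTE and 46 of 47 in Lipo-BiTE, with Cdt1 the exception. Libraries of the treated group all lay below all PBS libraries for 39 of 47 genes in Lipo-TriTE and 24 of 47 in Lipo-BiTE, where 23.4% and 19.4% of all tested genes did so. Both comparisons share the PBS libraries. The genes were chosen with earlier results of these data known, so their excess over all tested genes is a description and no independent support.

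**Figure D1:**
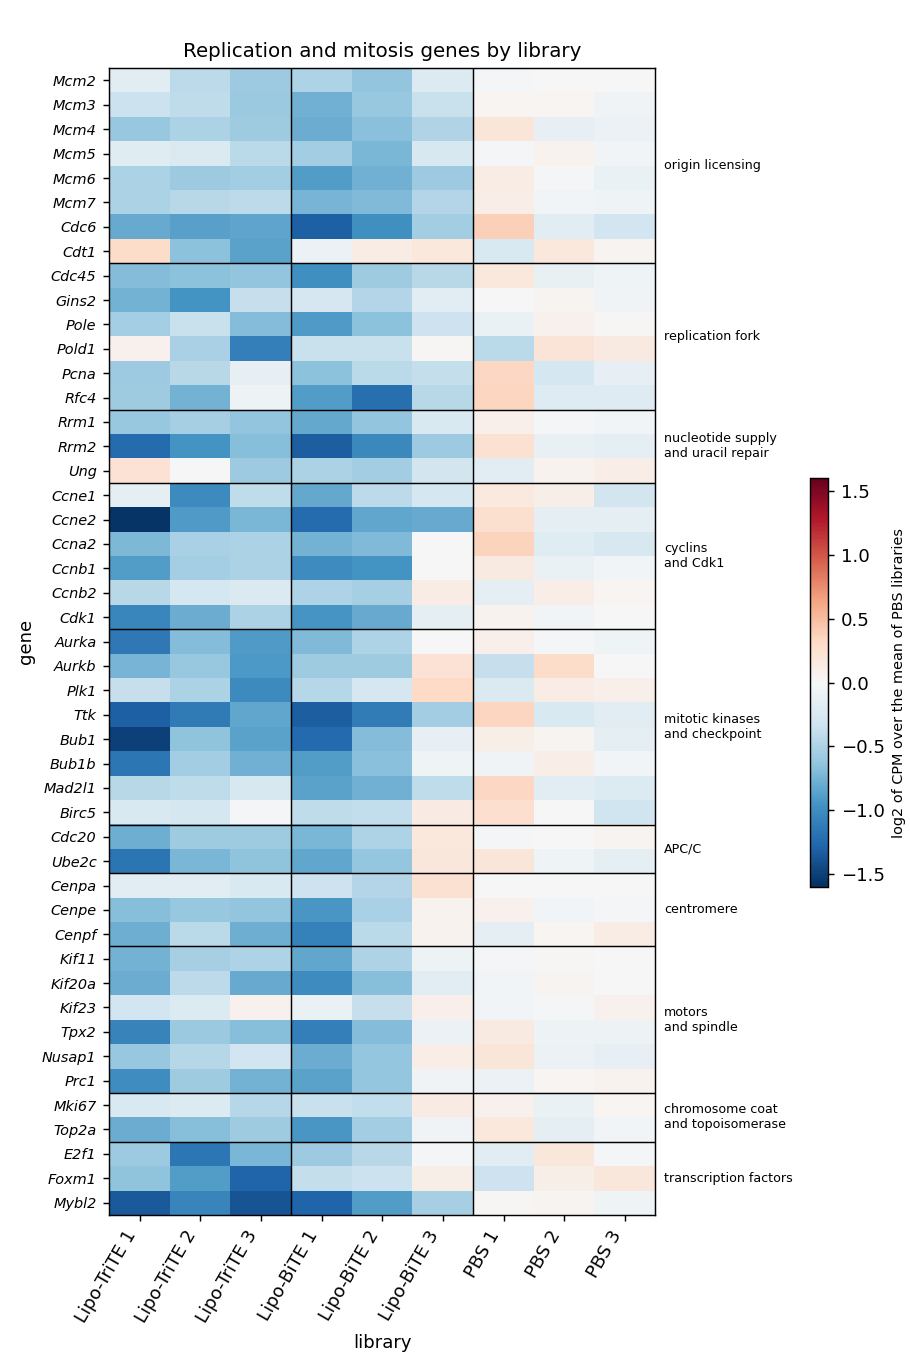
Level of each of the 47 genes (rows, grouped by role) in each library (columns), as log2 of CPM over the mean of the 3 PBS libraries; blue is lower and red is higher. Lipo-TriTE columns and Lipo-BiTE 1 and 2 are mostly blue, while Lipo-BiTE 3 is close to PBS for many mitosis genes and lower than PBS for most replication genes.

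Both counts depended on single libraries and on the scale. In Lipo-BiTE against PBS the count of lower genes was 33 without Lipo-BiTE 3, 5 without Lipo-BiTE 1, 4 without Lipo-BiTE 2, 5 without PBS 1, and 8 without PBS 2 or without PBS 3. In Lipo-TriTE against PBS it was 14 without Lipo-TriTE 1 or without Lipo-TriTE 2, 12 without PBS 2 and 14 without PBS 3. The calls kept in all 6 such fits were 9 of the 28 in Lipo-TriTE (Aurka, Ccne2, Foxm1, Mcm4, Mcm6, Mybl2, Rrm1, Rrm2 and Ttk) and 4 of the 14 in Lipo-BiTE (Mcm4, Mcm6, Mcm7 and Mybl2). With libraries scaled to the keratins Krt8 and Krt18 in place of all genes, 0 of 47 were called lower in either comparison, a result taken up below. In bulk tumour RNA, a smaller share of RNA from dividing cells and less of these RNAs per dividing cell cannot be told apart.

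Origin licensing genes fell in both treated groups. Of 8 genes, 5 fell in Lipo-TriTE (Mcm3, Mcm4, Mcm6, Mcm7 and Cdc6) and 6 in Lipo-BiTE (the same 5 and Mcm5). Mcm6, a subunit of the replicative helicase on chromosome 1, had 212, 203 and 205 CPM in Lipo-TriTE, 163, 177 and 202 CPM in Lipo-BiTE, and 328, 298 and 281 CPM in PBS libraries. No treated library reached any PBS library. In edgeR its log2 fold change was -0.55 (SE 0.13, adjusted p = 0.00859) in Lipo-TriTE and -0.74 (SE 0.13, adjusted p = 0.00307) in Lipo-BiTE against PBS, and both calls held whichever library was left out. Mcm3 had 148, 141 and 124 CPM in Lipo-TriTE, 110, 123 and 146 CPM in Lipo-BiTE, and 190, 190 and 179 CPM in PBS. The Mcm3 calls were not firm: of 6 fits that left out 1 library, 0 kept the Lipo-TriTE call (adjusted p up to 0.122) and 1 kept the Lipo-BiTE call (up to 0.0839). Mcm4 averaged 124 ± 4.47 CPM in Lipo-TriTE, 117 ± 12.8 CPM in Lipo-BiTE and 183 ± 23.6 CPM in PBS (SD, n = 3 each). Mcm7 averaged 128 ± 4.26, 113 ± 11.8 and 175 ± 11.7 CPM in the same order of groups, and its entry overlaps Cops6 and Ap4m1, so that reads can be shared.

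The helicase subunits Mcm5 and Mcm2 stood below PBS on average. Mcm5 had 118, 114 and 99.9 CPM in Lipo-TriTE, 91.4, 81.5 and 113 CPM in Lipo-BiTE, and 134, 140 and 131 CPM in PBS libraries. Its 3 Lipo-TriTE libraries lay below PBS but missed the threshold. Mcm2 averaged 98.8 ± 14.0 CPM in Lipo-TriTE, 95.3 ± 14.1 CPM in Lipo-BiTE and 129 ± 1.05 CPM in PBS, and passed in neither comparison. The helicase loader Cdc6 had 16.6, 16.0 and 16.2 CPM in Lipo-TriTE, 11.8, 14.7 and 19.7 CPM in Lipo-BiTE, and 37.9, 25.7 and 23.6 CPM in PBS libraries. Its fall was -0.91 on the log2 scale in Lipo-BiTE (SE 0.24, adjusted p = 0.0233, edgeR), but the call was lost without PBS 1 (adjusted p = 0.0898), Lipo-BiTE 1 (0.0972) or Lipo-BiTE 2 (0.0872). Cdt1, the partner of Cdc6 in loading, behaved differently from it, with 71.7, 37.2 and 32.3 CPM in Lipo-TriTE, 54.7, 63.5 and 65.7 CPM in Lipo-BiTE, and 49.4, 66.0 and 60.2 CPM in PBS. The Cdt1 groups overlapped, and it was the only gene of the 47 whose highest group mean was not PBS.

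Replication fork genes fell in part. Cdc45, which binds the helicase to switch it on, had 23.9, 24.6 and 25.0 CPM in Lipo-TriTE, 19.7, 26.0 and 28.4 CPM in Lipo-BiTE, and 43.6, 35.7 and 37.1 CPM in PBS libraries. Neither treated group overlapped PBS. The log2 fold change against PBS was -0.66 in Lipo-TriTE (SE 0.17, adjusted p = 0.0132) and -0.65 in Lipo-BiTE (SE 0.17, adjusted p = 0.0261) in edgeR. The Lipo-TriTE call was lost without Lipo-TriTE 2 (adjusted p = 0.0505), and the Lipo-BiTE call without PBS 1 (0.0895), PBS 2 (0.0596), PBS 3 (0.0674), Lipo-BiTE 1 (0.113) or Lipo-BiTE 2 (0.0722). Cdc45 overlaps Ufd1l on the other strand, and whether counting used strand is not given in the sources used here. Pole, the catalytic subunit of the leading-strand polymerase, fell in both treated groups, with 34.7 ± 4.13 CPM in Lipo-TriTE, 32.7 ± 6.55 CPM in Lipo-BiTE and 49.9 ± 3.08 CPM in PBS (SD, n = 3 each), but each Pole call was kept in 1 of 6 fits that left out 1 library (adjusted p up to 0.14 in Lipo-TriTE and 0.145 in Lipo-BiTE). Gins2, a GINS subunit whose entry overlaps Gse1, had 10.4, 9.12 and 13.6 CPM in Lipo-TriTE, 14.6, 12.7 and 15.5 CPM in Lipo-BiTE, and 17.8, 18.2 and 16.9 CPM in PBS libraries, and fell in Lipo-TriTE.

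The sliding clamp and the remaining fork genes passed in no comparison. Pcna, the clamp, had 199, 219 and 273 CPM in Lipo-TriTE, 189, 221 and 230 CPM in Lipo-BiTE, and 376, 246 and 274 CPM in PBS libraries. PBS 1 stood apart from PBS 2 and PBS 3 for Pcna, and the Lipo-TriTE libraries overlapped PBS. The clamp loader subunit Rfc4 averaged 19.1 ± 4.88 CPM in Lipo-TriTE, 14.8 ± 3.98 CPM in Lipo-BiTE and 25.9 ± 6.00 CPM in PBS, but it overlaps Eif4a2, which had 52610 counts over the 9 libraries against 2772 for Rfc4. Pold1, the catalytic subunit of the lagging-strand polymerase, had 85.0, 56.6 and 37.8 CPM in Lipo-TriTE, 63.4, 63.1 and 81.8 CPM in Lipo-BiTE, and 59.999, 93.8 and 89.2 CPM in PBS, with wide overlap.

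Both subunits of ribonucleotide reductase, the enzyme that makes deoxyribonucleotides, fell in both treated groups. Rrm2, its S-phase subunit, had 70.3, 84.9 and 103 CPM in Lipo-TriTE, 66.1, 80.7 and 110 CPM in Lipo-BiTE, and 195, 152 and 149 CPM in PBS libraries. All 6 treated libraries lay below all 3 PBS libraries. It fell by 47.8% in Lipo-TriTE (log2 fold change -0.94, SE 0.21, adjusted p = 0.00636, edgeR) and fell by 48% in Lipo-BiTE (log2 fold change -0.94, SE 0.21, adjusted p = 0.0114, edgeR). Without Lipo-BiTE 2 the Lipo-BiTE value was -0.90 with an adjusted p of 0.0513. Rrm1, the large subunit, averaged 110 ± 4.2 CPM in Lipo-TriTE, 114 ± 23.8 CPM in Lipo-BiTE and 166 ± 8.09 CPM in PBS (SD, n = 3 each). Ung, the uracil-DNA glycosylase that removes uracil from DNA, had 17.3, 14.6 and 9.83 CPM in Lipo-TriTE, 10.3, 9.98 and 11.97 CPM in Lipo-BiTE, and 12.9, 15.3 and 15.8 CPM in PBS, and passed in no comparison.

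**Figure D2:**
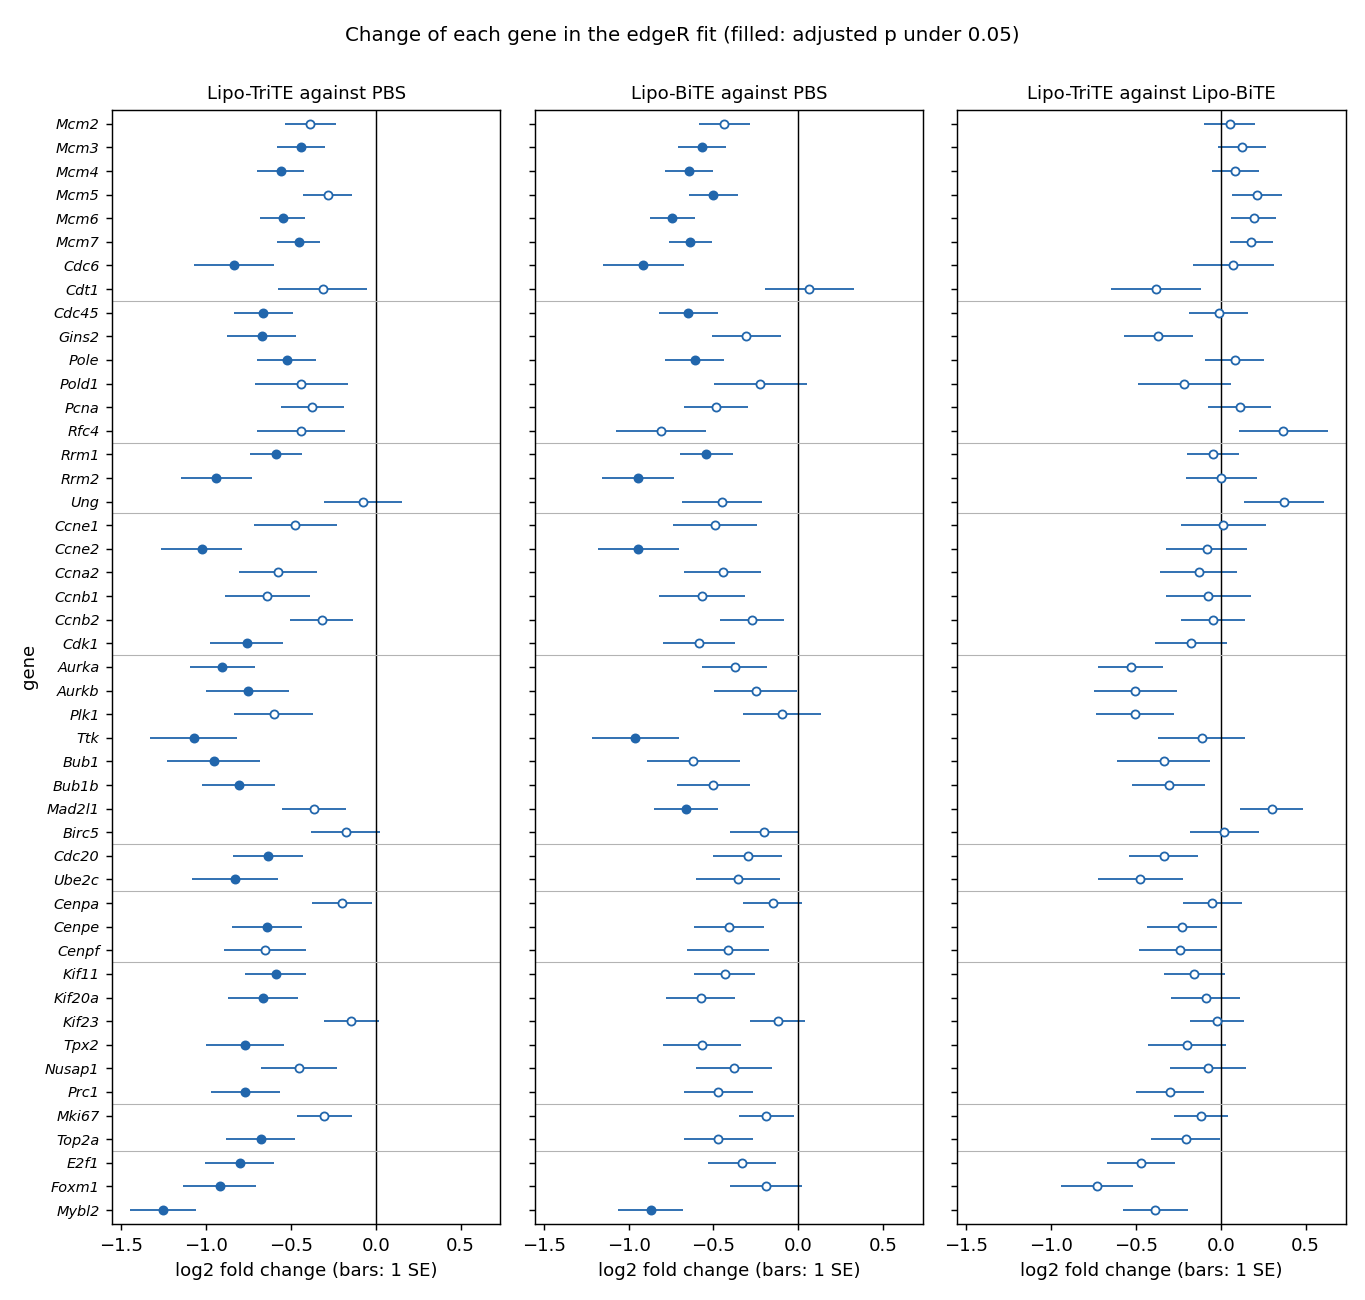
log2 fold change of each gene (rows, by role) in the 3 comparisons, with bars of 1 SE; filled points have an adjusted p under 0.05. Filled points number 28 in Lipo-TriTE against PBS and 14 in Lipo-BiTE against PBS, all left of 0, and 0 in Lipo-TriTE against Lipo-BiTE.

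Among cyclins, the E2 cyclin Ccne2, which acts with Cdk2 at the entry to S phase, fell most. It had 11.5, 18.2 and 20.6 CPM in Lipo-TriTE, 14.5, 19.1 and 19.5 CPM in Lipo-BiTE, and 40.7, 30.9 and 30.6 CPM in PBS libraries, without overlap. The edgeR log2 fold change was -1.02 in Lipo-TriTE (SE 0.24, adjusted p = 0.00747) and -0.94 in Lipo-BiTE (SE 0.24, adjusted p = 0.0209) against PBS. The Lipo-BiTE call was lost without PBS 1 (adjusted p = 0.0751), Lipo-BiTE 1 (0.0874) or Lipo-BiTE 2 (0.0545), and the entry overlaps Ints8 on the other strand. Its relative Ccne1 averaged 17.4 ± 5.01 CPM in Lipo-TriTE, 17.2 ± 3.17 CPM in Lipo-BiTE and 24.2 ± 3.86 CPM in PBS (SD, n = 3 each) and passed in neither.

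The mitotic kinase Cdk1 fell in Lipo-TriTE, with 40.3, 47.9 and 58.6 CPM there, 43.2, 47.6 and 74.8 CPM in Lipo-BiTE, and 86.0, 80.5 and 82.4 CPM in PBS libraries. Both treated groups lay wholly below PBS for Cdk1, and the Lipo-BiTE comparison missed the threshold. The cyclins that bind Cdk1 passed in no comparison. Ccnb1 had 35.6, 45.4 and 46.4 CPM in Lipo-TriTE, 33.0, 34.2 and 66.7 CPM in Lipo-BiTE, and 72.8, 61.5 and 64.0 CPM in PBS libraries. Ccnb2 averaged 41.5 ± 3.15 CPM in Lipo-TriTE, 42.8 ± 11.4 CPM in Lipo-BiTE and 51.7 ± 4.48 CPM in PBS. The S and G2 cyclin Ccna2, whose entry overlaps Exosc9, averaged 57.9 ± 4.87 CPM in Lipo-TriTE, 63.3 ± 19.7 CPM in Lipo-BiTE and 86.2 ± 21.3 CPM in PBS (SD, n = 3 each).

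Mitotic kinases and spindle checkpoint genes fell in Lipo-TriTE for 5 of 8 (Aurka, Aurkb, Ttk, Bub1 and Bub1b) and in Lipo-BiTE for 2 of 8 (Ttk and Mad2l1). Ttk, also called Mps1, the kinase that starts the checkpoint signal, had 9.89, 11.1 and 13.7 CPM in Lipo-TriTE, 9.76, 11.2 and 16.5 CPM in Lipo-BiTE, and 31.0, 20.5 and 21.6 CPM in PBS libraries. Its edgeR log2 fold change was -1.07 in Lipo-TriTE (SE 0.26, adjusted p = 0.00846) and -0.96 in Lipo-BiTE (SE 0.26, adjusted p = 0.0261) against PBS. The Ttk call in Lipo-BiTE was lost without PBS 1 (adjusted p = 0.0992), PBS 3 (0.0509), Lipo-BiTE 1 (0.109) or Lipo-BiTE 2 (0.105). Aurka, the Aurora kinase of spindle poles, had 31.4, 42.6 and 36.7 CPM in Lipo-TriTE, 42.2, 48.9 and 68.6 CPM in Lipo-BiTE, and 73.0, 68.0 and 66.1 CPM in PBS libraries. The Lipo-TriTE libraries lay below all PBS libraries, while Lipo-BiTE 3 lay among them. Aurka was at -0.90 on the log2 scale in Lipo-TriTE against PBS (SE 0.19, adjusted p = 0.00469, edgeR), a call kept in all 6 fits that left out 1 library of the pair of groups.

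Bub1, a checkpoint kinase at kinetochores, had 30.8, 55.3 and 47.8 CPM in Lipo-TriTE, 36.7, 53.7 and 78.7 CPM in Lipo-BiTE, and 92.7, 89.3 and 77.7 CPM in PBS libraries. It fell by 0.95 on the log2 scale in Lipo-TriTE (SE 0.28, adjusted p = 0.0216, edgeR), but not past the threshold without PBS 1 (adjusted p = 0.0537), PBS 2 (0.0672) or Lipo-TriTE 1 (0.0787). Bub1b (BubR1), an inhibitor of the APC/C, averaged 108 ± 21.7 CPM in Lipo-TriTE, 133 ± 40.6 CPM in Lipo-BiTE and 188 ± 12.04 CPM in PBS (SD, n = 3 each). Mad2l1 (Mad2), which works beside it, had 38.1, 39.1 and 43.3 CPM in Lipo-TriTE, 28.5, 30.5 and 38.9 CPM in Lipo-BiTE, and 64.9, 45.7 and 44.5 CPM in PBS libraries; its treated libraries all lay below PBS, and the call was made in Lipo-BiTE. Aurkb, the Aurora kinase of the chromosomal passenger complex, had 30.8, 33.8 and 27.2 CPM in Lipo-TriTE, 34.6, 34.7 and 60.7 CPM in Lipo-BiTE, and 39.8, 63.1 and 51.8 CPM in PBS. Its partner Birc5 (survivin) averaged 30.1 ± 2.93 CPM in Lipo-TriTE, 29.7 ± 6.6 CPM in Lipo-BiTE and 34.1 ± 6.82 CPM in PBS, and passed in neither. The Polo kinase Plk1, with 34.8 ± 7.81, 49.4 ± 14.4 and 52.8 ± 6.74 CPM, passed in neither as well, although its Lipo-TriTE libraries lay below all PBS libraries.

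Both APC/C genes fell in Lipo-TriTE against PBS, and neither call was firm. Ube2c, a ubiquitin-conjugating enzyme of the APC/C, had 49.4, 67.2 and 71.0 CPM in Lipo-TriTE, 62.3, 72.1 and 126 CPM in Lipo-BiTE, and 127, 105 and 101 CPM in PBS libraries. Lipo-BiTE 3 stood at the level of PBS 1, and the other treated libraries lay below PBS. Ube2c was at -0.83 on the log2 scale in Lipo-TriTE against PBS (SE 0.25, adjusted p = 0.026, edgeR), a call lost without PBS 1 (adjusted p = 0.0712), PBS 2 (0.062), PBS 3 (0.0528), Lipo-TriTE 1 (0.107) or Lipo-TriTE 2 (0.0664). Cdc20, the APC/C activator released by the checkpoint, had 70.7, 82.4 and 82.3 CPM in Lipo-TriTE, 73.2, 86.8 and 137 CPM in Lipo-BiTE, and 119, 121 and 125 CPM in PBS libraries. Its Lipo-TriTE call was lost whichever library was left out, with an adjusted p of up to 0.115. In Lipo-BiTE its log2 fold change was -0.30 (SE 0.20, adjusted p = 0.336, edgeR), with Lipo-BiTE 3 above every PBS library, and without Lipo-BiTE 3 it was -0.63 (adjusted p = 0.0138).

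Of the 3 centromere genes, 1 fell in Lipo-TriTE and 0 in Lipo-BiTE. Cenpe, the kinesin that moves chromosomes to the spindle equator, had 62.8, 65.7 and 64.5 CPM in Lipo-TriTE, 52.7, 69.7 and 104 CPM in Lipo-BiTE, and 105, 97.2 and 97.9 CPM in PBS libraries. Its log2 fold change was -0.64 in Lipo-TriTE (SE 0.21, adjusted p = 0.0342, edgeR) and -0.41 in Lipo-BiTE (SE 0.21, adjusted p = 0.193). The Lipo-TriTE call for Cenpe was lost whichever library was left out, with adjusted p of 0.0695, 0.0858 and 0.0858 without PBS 1, 2 and 3 and 0.0965, 0.0979 and 0.0712 without Lipo-TriTE 1, 2 and 3. Without Lipo-BiTE 3 the Lipo-BiTE value was -0.73 (adjusted p = 0.00857). Cenpf, an outer kinetochore protein, averaged 52.8 ± 7.77 CPM in Lipo-TriTE, 62.4 ± 23.5 CPM in Lipo-BiTE and 83.1 ± 7.81 CPM in PBS (SD, n = 3 each). Cenpa, the histone H3 variant that marks centromeres, averaged 63.7 ± 1.68 CPM in Lipo-TriTE, 65.8 ± 18.2 CPM in Lipo-BiTE and 73.1 ± 0.444 CPM in PBS. Neither Cenpf nor Cenpa passed in any comparison, although for all 3 centromere genes every Lipo-TriTE library lay below every PBS library.

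Of the 6 genes for spindle motors and spindle proteins, 4 fell in Lipo-TriTE (Kif11, Kif20a, Tpx2 and Prc1) and 0 in Lipo-BiTE. Prc1, which bundles microtubules of the central spindle, had 42.3, 56.9 and 49.8 CPM in Lipo-TriTE, 46.7, 54.9 and 81.4 CPM in Lipo-BiTE, and 79.2, 86.5 and 87.8 CPM in PBS libraries. It was at -0.77 on the log2 scale in Lipo-TriTE against PBS (SE 0.20, adjusted p = 0.0136, edgeR), a call lost without PBS 3 (adjusted p = 0.0515) or Lipo-TriTE 1 (0.0583). Kif20a, a kinesin of cytokinesis whose entry overlaps Cdc23, had 41.8, 54.3 and 41.4 CPM in Lipo-TriTE, 36.2, 45.4 and 64.7 CPM in Lipo-BiTE, and 70.7, 74.9 and 72.5 CPM in PBS libraries. In Lipo-BiTE Kif20a was at -0.58 (SE 0.20, adjusted p = 0.0785, edgeR), with all 3 libraries below PBS, and at -0.85 without Lipo-BiTE 3 (adjusted p = 0.00663).

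The kinesin Kif11, which pushes spindle poles apart, averaged 52.8 ± 4.94 CPM in Lipo-TriTE, 58.8 ± 15.5 CPM in Lipo-BiTE and 79.5 ± 0.992 CPM in PBS (SD, n = 3 each). Tpx2, the activator of Aurora A on the spindle, averaged 95.8 ± 16.3 CPM in Lipo-TriTE, 110 ± 38.7 CPM in Lipo-BiTE and 163 ± 15.3 CPM in PBS. Nusap1, a microtubule-binding spindle protein that passed in neither, averaged 42.4 ± 4.44 CPM in Lipo-TriTE, 44.6 ± 15.7 CPM in Lipo-BiTE and 58.0 ± 7.50 CPM in PBS. Kif23, a kinesin of the central spindle, had 39.1, 41.4 and 50.4 CPM in Lipo-TriTE, 44.7, 37.3 and 50.9 CPM in Lipo-BiTE, and 46.8, 47.3 and 50.4 CPM in PBS libraries. Kif23 was singled out after its values were seen, and its 95% interval (t distribution on the fit's degrees of freedom) was -0.50 to 0.21 in Lipo-TriTE and -0.47 to 0.23 in Lipo-BiTE against PBS on the log2 scale.

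Top2a, the topoisomerase that untangles sister chromosomes, fell in Lipo-TriTE. It had 260, 281 and 305 CPM in Lipo-TriTE, 236, 306 and 434 CPM in Lipo-BiTE, and 506, 410 and 438 CPM in PBS libraries. Top2a was at -0.68 on the log2 scale in Lipo-TriTE against PBS (SE 0.20, adjusted p = 0.0249, edgeR), a call lost without PBS 1 (adjusted p = 0.0646), PBS 2 (0.0524), PBS 3 (0.0669), Lipo-TriTE 1 (0.0878) or Lipo-TriTE 2 (0.0854). In Lipo-BiTE Top2a was at -0.47 (SE 0.20, adjusted p = 0.135), and at -0.76 without Lipo-BiTE 3 (adjusted p = 0.0112). Mki67, the coat protein of mitotic chromosomes used as a marker of dividing cells, had 177, 180 and 152 CPM in Lipo-TriTE, 164, 159 and 229 CPM in Lipo-BiTE, and 220, 194 and 214 CPM in PBS libraries. Mki67 passed in neither comparison, although its Lipo-TriTE libraries lay below all PBS libraries. Per kilobase of deposited gene length, the highest level of the 47 in each group was that of Pcna, at 96.1 CPM per kb in Lipo-TriTE, 88.9 in Lipo-BiTE and 124 in PBS.

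Of the 3 transcription factors, 3 fell in Lipo-TriTE and 1 in Lipo-BiTE, and Mybl2 had the largest fall of the 47 in Lipo-TriTE. Mybl2 (B-Myb), which turns on late S-phase and mitotic genes, had 23.1, 27.9 and 22.3 CPM in Lipo-TriTE, 23.9, 31.3 and 40.4 CPM in Lipo-BiTE, and 59.1, 60.1 and 55.7 CPM in PBS libraries. Against PBS it fell by 58.1% in Lipo-TriTE (log2 fold change -1.25, SE 0.19, adjusted p = 0.000867, edgeR) and fell by 45.3% in Lipo-BiTE (log2 fold change -0.87, SE 0.19, adjusted p = 0.0108, edgeR). Both Mybl2 calls held whichever library was left out. Foxm1, which acts on mitotic genes after B-Myb, had 32.1, 27.0 and 20.7 CPM in Lipo-TriTE, 38.6, 39.9 and 54.0 CPM in Lipo-BiTE, and 40.1, 53.7 and 57.3 CPM in PBS libraries. The Foxm1 call was made in Lipo-TriTE against PBS, and Lipo-BiTE overlapped PBS. E2f1, an activator of replication genes, averaged 27.9 ± 5.51 CPM in Lipo-TriTE, where it fell, 38.7 ± 7.85 CPM in Lipo-BiTE and 48.7 ± 6.07 CPM in PBS (SD, n = 3 each).

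**Figure D3:**
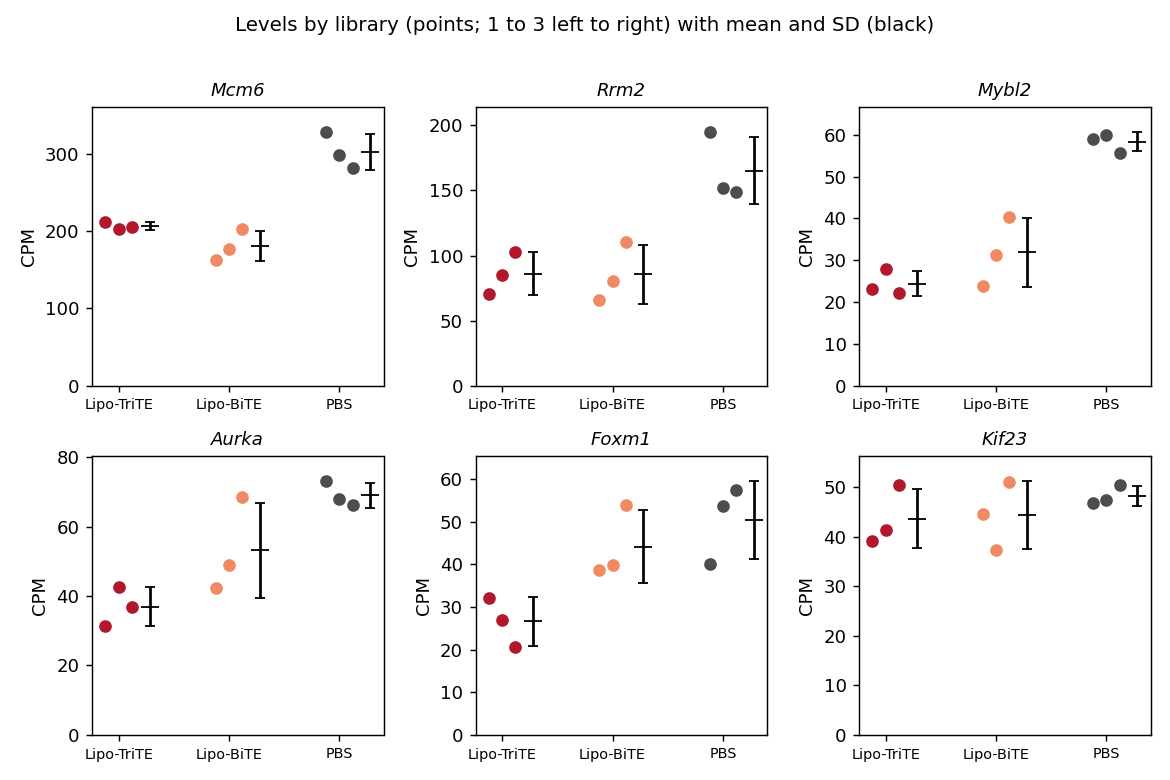
Level in CPM (vertical axes, from 0) of 6 genes in each library, with Lipo-TriTE left, Lipo-BiTE in the middle and PBS right; black marks give the mean and SD of 3 libraries. Mcm6, Rrm2 and Mybl2 lie below PBS in all 6 treated libraries, Aurka and Foxm1 lie below PBS in Lipo-TriTE and overlap PBS in Lipo-BiTE, and Kif23 overlaps in all groups.

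Replication and mitosis genes passed in similar shares in Lipo-TriTE, while in Lipo-BiTE fewer mitosis genes passed, a difference that was not tested. Of the 17 replication genes 10 passed in each comparison with PBS, with a median log2 fold change of -0.45 in Lipo-TriTE and -0.57 in Lipo-BiTE. Of the 21 mitosis genes 13 passed in Lipo-TriTE (median -0.65) and 2 in Lipo-BiTE (median -0.41). Without Lipo-BiTE 3, 12 of 17 replication and 15 of 21 mitosis genes passed in Lipo-BiTE against PBS. The genes that passed in neither include the clamp and its loader (Pcna and Rfc4), the A and B cyclins (Ccna2, Ccnb1 and Ccnb2), the Polo kinase Plk1 and the proliferation marker Mki67. Among genes with a promoter window that fell in Lipo-TriTE, 12 of 20 held CHR letters and 7 of 20 held E2F letters. Among those that fell in Lipo-BiTE, 3 of 11 held CHR and 7 of 11 held E2F. Among those that fell in neither, 7 of 16 held CHR and 5 of 16 held E2F. Over all tested genes with a window 16.6% held CHR and 18.8% held E2F, and over the 38 genes 50% and 34.2% did. The genes that fell in Lipo-BiTE included 10 replication and 2 mitosis genes, and the letters differed between these roles. All these shares are a description, with no test, and show no difference between the treatments.

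Lipo-BiTE 3 stood apart from its group. It had the highest Lipo-BiTE level for 47 of 47 genes, where 35.8% of all tested genes were highest in that library. It reached at least the lowest PBS library for 23 of 47, namely 15 of 21 mitosis genes, 2 of 17 replication genes, 4 of the 6 cyclins and Cdk1, and 2 of the 3 transcription factors. Lipo-BiTE 1 and Lipo-BiTE 2 each did so for 2 of 47. Its mean log2 CPM was 6.07 over replication genes and 6.40 over mitosis genes, a difference of -0.33, against 0.05 in Lipo-BiTE 1 and -0.07 in Lipo-BiTE 2. The same difference was 0.32, -0.02 and 0.02 in Lipo-TriTE 1, 2 and 3, and 0.02, -0.01 and -0.01 in PBS 1, 2 and 3. Within Lipo-BiTE, library 3 also had the lowest summed markers of T cells (197 CPM), macrophages (435 CPM) and neutrophils (1054 CPM). It had the highest sums of epithelium (839 CPM) and fibroblasts (2212 CPM). The fibroblast sum was almost all Col3a1, and the other fibroblast markers were mixed. Within Lipo-BiTE, Col1a1 and Dcn were lowest in library 3, Col1a2 was between the others, and Pdgfra and Lum were highest. The part of these marker shifts in its levels of replication and mitosis genes was not tested. The median coefficient of variation over the 47 was 14.0% in Lipo-TriTE, 25.9% in Lipo-BiTE and 9.38% in PBS.

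**Figure D4:**
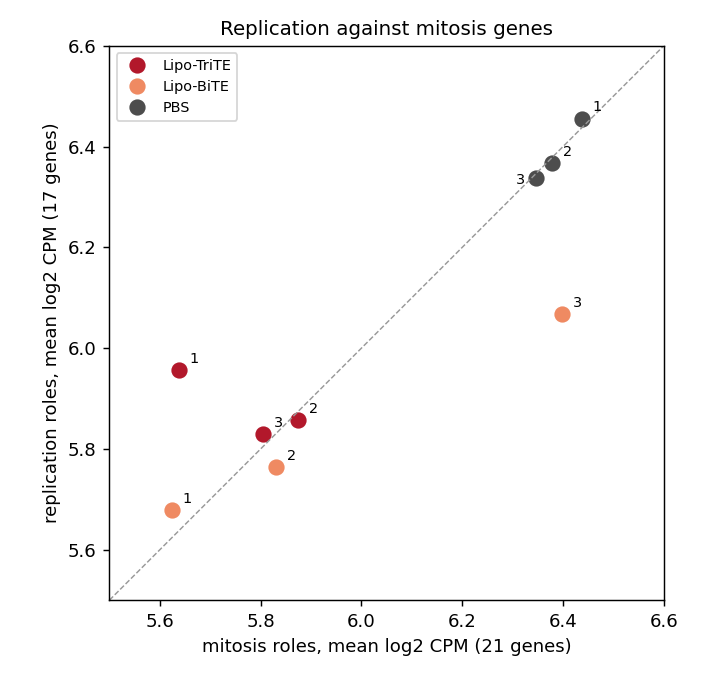
Mean log2 CPM of 21 mitosis genes (horizontal) and 17 replication genes (vertical) in each library, numbered by replicate; the dashed line marks equal values. PBS libraries lie on the line at the upper right, Lipo-BiTE 3 lies below it at the PBS level of mitosis genes, and Lipo-TriTE 1 lies above it.

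Lipo-TriTE against Lipo-BiTE showed no difference past the threshold in edgeR: 0 of 47 were higher and 0 lower, where 4.88% and 5.21% of all tested genes were called. At an unadjusted p under 0.05 there were 3 of 47, and DESeq2 called 1, Foxm1. Group means were lower in Lipo-TriTE than in Lipo-BiTE for 19 of 21 mitosis genes, 5 of 6 cyclins and Cdk1 and 3 of 3 transcription factors, and higher for 12 of 17 replication genes. The tally rested on Lipo-BiTE 3 and on the scaling: 32 of 47 estimates were below 0, against 12 of 47 without Lipo-BiTE 3, 23 of 47 with total counts and 3 of 47 with keratin scaling, and for mitosis genes 6 of 21 were below 0 without Lipo-BiTE 3. Foxm1 came closest to a call, at -0.73 on the log2 scale (SE 0.21, adjusted p = 0.0542, edgeR), with all 3 Lipo-TriTE libraries below all 3 Lipo-BiTE libraries. Aurkb was the other gene lower without overlap and Mcm6 the one gene higher without overlap, where 14.4% and 16.1% of all tested genes did so. Mcm6 was at 0.19 (SE 0.13, adjusted p = 0.392). Genes that passed against PBS in one treated group and not in the other are therefore not shown to differ between the treated groups.

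Other values of Lipo-TriTE against Lipo-BiTE were smaller or less sure. In edgeR the log2 difference was -0.53 for Aurka (SE 0.19, adjusted p = 0.106), -0.47 for Ube2c (SE 0.25, adjusted p = 0.262), -0.37 for Gins2 (SE 0.20, adjusted p = 0.284) and 0.37 for Ung (SE 0.23, adjusted p = 0.352). It was -0.30 for Prc1 (SE 0.20, adjusted p = 0.392). Without Lipo-BiTE 1 both Foxm1 (adjusted p = 0.0425) and Aurka (adjusted p = 0.0372) passed, and without Lipo-TriTE 1 Cdt1 was the gene called lower. Without Lipo-BiTE 3 the sign turned for 20 of the 47 genes, 13 of them mitosis genes. Among the genes given here, Cenpe was at 0.10, against -0.23 with all libraries (SE 0.21, adjusted p = 0.533), Top2a at 0.09, against -0.21 (SE 0.20, adjusted p = 0.576), and Cdk1 at 0.14, against -0.17 (SE 0.21, adjusted p = 0.661). For Rrm2, chosen after its values were seen, the 95% interval of the difference was -0.46 to 0.47.

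Relative to 2 epithelial keratins, the summed level of the 47 genes lay within or above the PBS range in each Lipo-TriTE library, and Lipo-BiTE overlapped PBS. The sum was 3203 ± 101 CPM in Lipo-TriTE, 3416 ± 779 CPM in Lipo-BiTE and 4773 ± 255 CPM in PBS (SD, n = 3 each). Krt8 and Krt18 together had 314, 581 and 550 CPM in Lipo-TriTE, 511, 640 and 734 CPM in Lipo-BiTE, and 870, 899 and 837 CPM in PBS libraries. The ratio of the sums was 9.83, 5.66 and 5.89 in Lipo-TriTE, 5.49, 4.93 and 5.85 in Lipo-BiTE, and 5.82, 5.17 and 5.503 in PBS libraries. Lipo-BiTE lay within 4.93 to 5.85 and PBS within 5.17 to 5.82, while Lipo-TriTE 1, the library with the least keratin, stood above all others and Lipo-TriTE 3 above all PBS libraries. For replication genes the ratio was 4.74, 2.49 and 2.63 in Lipo-TriTE, 2.41, 2.08 and 2.17 in Lipo-BiTE, and 2.56, 2.21 and 2.34 in PBS libraries. Lipo-TriTE and Lipo-BiTE did not overlap, and how many of all tested genes did so was not counted. On the keratin scale the median log2 fold change of Lipo-TriTE against Lipo-BiTE was 0.44 over all tested genes and 0.38 over the 47. With libraries scaled to these keratins the median log2 fold change of all tested genes was 0.96 in Lipo-TriTE and 0.47 in Lipo-BiTE against PBS, and that of the 47 was 0.34 and -0.02. On that scale edgeR called 0 of 47 lower in either comparison, and Kif23 higher in Lipo-TriTE against PBS (log2 fold change 0.79, adjusted p = 0.0462). The choice of keratins matters, since the other epithelial markers followed them in part or not at all. Against PBS, Cdh1 was higher in both treated groups (log2 fold change 3.21, adjusted p = 0.000638 in Lipo-TriTE, and 2.63, adjusted p = 0.00293 in Lipo-BiTE, edgeR). Krt19 was at -0.61 (adjusted p = 0.149) in Lipo-TriTE and 0.20 (adjusted p = 0.683) in Lipo-BiTE, and Epcam at 0.83 (adjusted p = 0.133) and -0.36 (adjusted p = 0.573). Krt8 and Krt18 were called lower in Lipo-TriTE, and neither was called in Lipo-BiTE. The keratins are themselves levels in the same bulk RNA, and which cells the replication and mitosis RNAs came from was not tested.

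**Figure D5:**
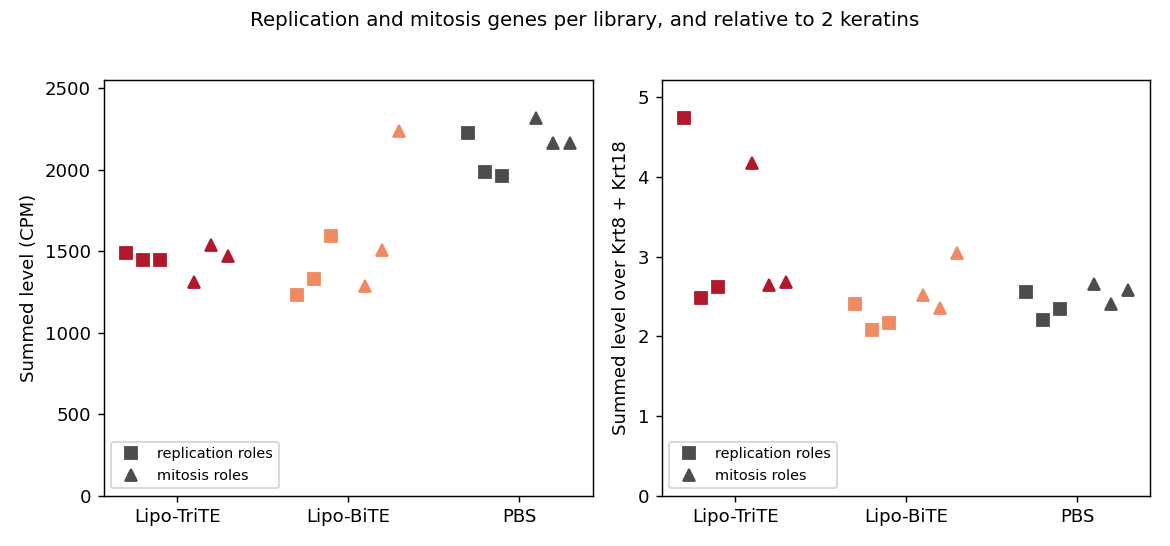
Summed CPM of 17 replication genes (squares) and 21 mitosis genes (triangles) in each library (left), and the same sums over Krt8 plus Krt18 (right), by group. Summed CPM is lower in Lipo-TriTE and in Lipo-BiTE 1 and 2 than in PBS, while the ratios of Lipo-BiTE and PBS overlap. Lipo-TriTE 1 has the highest ratios, and all 3 Lipo-TriTE replication ratios lie above those of Lipo-BiTE. With keratin scaling the median log2 fold change of all tested genes in Lipo-TriTE against Lipo-BiTE was 0.44.

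Further genes of the same processes were called lower in part, and none was called higher against PBS. Of 36 further replication genes tested, 11 were lower and 0 higher in Lipo-TriTE, while Lipo-BiTE had 8 lower and 0 higher than PBS. Of 44 further mitosis genes tested, 15 were lower and 0 higher in Lipo-TriTE, and 5 lower and 0 higher in Lipo-BiTE. Over all tested genes 14.8% were lower and 18.9% higher in Lipo-TriTE, and 3.22% lower and 13.8% higher in Lipo-BiTE. In Lipo-TriTE 5 of the 36 (Gins3, Gins4, Rfc2, Fen1 and Dbf4) and 3 of the 44 (Smc4, Pttg1 and Cenpm) had estimates above 0, as did 0 of the 36 and 2 of the 44 in Lipo-BiTE. Libraries lay above all PBS libraries, without overlap, for 2 of the 36 and 1 of the 44 in Lipo-TriTE, where 26% of all tested genes did so. Lipo-TriTE libraries lay below all PBS libraries for 21 of the 36 and 31 of the 44, where 23.4% of all tested genes did so. In Lipo-BiTE this held for 23 of the 36 and 14 of the 44, where 19.4% of all tested genes did so. Medians were -0.44 and -0.50 for replication and -0.58 and -0.45 for mitosis, in Lipo-TriTE and Lipo-BiTE against PBS. In Lipo-TriTE against Lipo-BiTE 0 of the 36 and 0 of the 44 passed, where the smallest p belonged to the GINS subunit Gins4 (log2 difference 0.51, SE 0.16, adjusted p = 0.0658, edgeR) and the single-strand binding subunit Rpa2 (0.54, SE 0.17, adjusted p = 0.0677).

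Genes that control entry into the cycle moved in both directions. Of 28 tested, 8 were higher and 7 lower in Lipo-TriTE, while Lipo-BiTE had 9 higher and 3 lower than PBS. Tested genes as a whole also moved in both directions. Of these, 18.9% rose and 14.8% fell in Lipo-TriTE, and 13.8% rose and 3.22% fell in Lipo-BiTE. Rbl2 (p130), the pocket protein of the DREAM complex that represses cell cycle genes in resting cells, had 108, 106 and 93.8 CPM in Lipo-TriTE, 80.5, 66.9 and 57.4 CPM in Lipo-BiTE, and 39.7, 37.9 and 45.7 CPM in PBS libraries. The 3 Rbl2 groups did not overlap. Its log2 fold change was 1.32 in Lipo-TriTE (SE 0.16, adjusted p = 0.000179) and 0.73 in Lipo-BiTE (SE 0.16, adjusted p = 0.00864) against PBS, and 0.59 (SE 0.15, adjusted p = 0.0361) in Lipo-TriTE against Lipo-BiTE, all in edgeR. Rb1, the retinoblastoma protein gene, had 48.9, 47.3 and 48.8 CPM in Lipo-TriTE, 63.4, 40.8 and 24.7 CPM in Lipo-BiTE, and 16.8, 11.6 and 15.6 CPM in PBS libraries. It rose in both treated groups, with a log2 fold change of 1.55 in Lipo-BiTE (SE 0.29, adjusted p = 0.00435, edgeR).

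Ccnd2, the D-type cyclin common in lymphocytes, had 272, 204 and 172 CPM in Lipo-TriTE, 205, 142 and 113 CPM in Lipo-BiTE, and 62.9, 57.1 and 59.9 CPM in PBS libraries, and rose in both treated groups. Ccnd2 was at 1.85 in Lipo-TriTE (SE 0.23, adjusted p = 0.000237) and 1.35 in Lipo-BiTE (SE 0.23, adjusted p = 0.00225) on the log2 scale in edgeR. Myc, a growth-promoting transcription factor, had 63.3, 26.6 and 20.2 CPM in Lipo-TriTE, 24.5, 18.0 and 16.8 CPM in Lipo-BiTE, and 3.11, 5.24 and 5.22 CPM in PBS libraries. In edgeR Myc was at 3.01 in Lipo-TriTE (SE 0.43, adjusted p = 0.000631) and 2.12 in Lipo-BiTE (SE 0.42, adjusted p = 0.00655) against PBS on the log2 scale, and Lipo-TriTE 1 stood above the other Lipo-TriTE libraries. E2f3, an activator like E2f1, had 38.4, 44.2 and 41.7 CPM in Lipo-TriTE, 44.1, 53.7 and 63.6 CPM in Lipo-BiTE, and 76.4, 80.2 and 80.6 CPM in PBS libraries. It fell in both treated groups, with a log2 fold change of -0.93 in Lipo-TriTE (SE 0.15, adjusted p = 0.00123, edgeR). Cdkn1a (p21), an inhibitor of cyclin-dependent kinases, had 133, 236 and 226 CPM in Lipo-TriTE, 536, 429 and 262 CPM in Lipo-BiTE, and 155, 189 and 171 CPM in PBS libraries, and was lower in Lipo-TriTE than in Lipo-BiTE (log2 difference -1.04, SE 0.27, adjusted p = 0.037, edgeR). T cell, macrophage and neutrophil markers were higher in both treated groups as well, and their part in these changes was not tested.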

How the data were processed

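The 9 random-primed RNA libraries analysed were labelled as tumour tissue, and whether each came from a different tumour is not stated. The authors deposited raw read counts per gene. The values are whole, and library totals differ, so the counts were taken as unscaled. For the aligner, counting tool and genome build: not given in the sources used here. Identifiers are those of C57BL/6NJ gene models. How reads shared by overlapping genes were counted is likewise not given, and 18 of the 47 genes overlap another entry, 14 of them on the other strand. The 3710 entries with a gene identifier and no name stayed in library totals and tests, and 52 repeated names were separated by identifier. Library totals of 13152783 to 20273548 counts put a floor of 3 counts at 0.145 to 0.236 CPM.

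Counts were tested in R 4.3.3 with edgeR 4.0.16: filterByExpr, TMM scaling, a robust quasi-likelihood fit over all 9 libraries with 1 mean per group (6 residual degrees of freedom), and Benjamini-Hochberg adjustment over 16596 genes. Each SE is the size of the log2 fold change over the square root of F. DESeq2 1.42.0 was an alternative. The test was checked on simulated counts in which 200 genes drawn at random were changed. It recovered 22% of 2-fold changes in Lipo-BiTE against PBS, 35% in Lipo-TriTE against PBS and 40% in Lipo-TriTE against Lipo-BiTE. For 4-fold changes the shares were 62%, 72% and 61% in the same order, with 4, 7 and 8 false calls. Most simulated 2-fold changes were thus missed, and a gene that did not pass is not shown to be unchanged. Replicate libraries were compared by chi-square, and each pair differed by more than counting noise (4.81 or more per degree of freedom). Per-gene means over libraries used log2(CPM + 0.5).

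The genes and lists were chosen with earlier results of these data known. Statistics are given for the gene of smallest p in each role, the 5 called genes of largest change, and up to 4 further pathway genes of smallest p per comparison; the remaining genes are given by levels. Alternatives were total-count and keratin scaling, other filters, a replicate block, the compared groups alone, DESeq2 and leaving out each library.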

Additional observations from a re-analysis of the deposited data

How the results depend on the processing

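Of the counts of genes past the threshold, several moved by over 1.5 times. Lower genes among the 47 in Lipo-BiTE against PBS, 14 in all, numbered 0 with keratin scaling, 23 with no filter on low counts and 4 to 33 when 1 library was left out; those in Lipo-TriTE against PBS, 28 in all, numbered 0 with keratin scaling and 12 to 22 when 1 library was left out. Higher genes among the 47 numbered 1 in Lipo-TriTE against PBS with keratin scaling. Lower genes in Lipo-TriTE against Lipo-BiTE, 0 in all, numbered 1 with no filter, 1 with DESeq2 and 0 to 2 when 1 library was left out. Where an arm kept 2 libraries, the spread was pooled over the groups.

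Over all genes, those lower in Lipo-BiTE against PBS (534) numbered 985 with total counts, 38 with keratin scaling, 839 with no filter, 995 with DESeq2 and 80 to 972 without 1 library; those higher (2283) numbered 1455 to 2655 without 1 library. In Lipo-TriTE against PBS, 7540 were higher (3133) and 7 lower (2449) with keratin scaling, and 1391 to 2222 were lower without 1 library. In Lipo-TriTE against Lipo-BiTE, lower genes (865) numbered 457 with total counts, 10 with keratin scaling, 1455 with no filter, 510 with the compared groups alone and 158 to 1031 without 1 library, and higher genes (810) numbered 1538 with no filter, 1475 with DESeq2 and 276 to 901 without 1 library. With total counts the share of calls that were higher was 67.9% in Lipo-BiTE against PBS, beside 81.0% with TMM, and 70.5% in Lipo-TriTE against Lipo-BiTE, beside 48.4%. Between libraries of the same replicate number, deviations from the group mean correlated at -0.243 to 0.0869. This cannot decide whether samples were paired, which the labels do not say. With replicate numbers as a block, 8 of the 47 were lower in Lipo-BiTE and 26 in Lipo-TriTE against PBS. Over all genes 282 were then lower in Lipo-BiTE against PBS.

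Keratin scaling turned the sign of 42 of the 47 estimates in Lipo-TriTE against PBS, 21 for Lipo-BiTE over PBS, and 29 between Lipo-TriTE and Lipo-BiTE. Among the genes given with a fold change, those in Lipo-BiTE against PBS were Cdc20 at 0.15 and Cenpe at 0.030. In Lipo-TriTE against PBS they were Ube2c at 0.068, Cenpe at 0.31, Top2a at 0.26, Aurka at 0.0080, Prc1 at 0.14, Mcm6 at 0.42 and Cdc45 at 0.29. In Lipo-TriTE against Lipo-BiTE they were Cenpe at 0.28, Top2a at 0.28, Cdk1 at 0.28, Prc1 at 0.16 and Gins2 at 0.083. In that comparison values without 1 library ran from -0.46 to 0.10 for Cenpe, -0.42 to 0.088 for Top2a and -0.35 to 0.14 for Cdk1, with the highest without Lipo-BiTE 3, where 20 of the 47 turned sign. In the last 150 bases of the promoter windows, E2F letters stood in 8 and CHR letters in 18 of the 38 members. Keratin scaling shifts every gene by construction; the cause of the other moves was not tested.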

Other observations

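Among the genes that control entry into the cycle, those in this paragraph were chosen after their values were seen. Ccnd1, the D-type cyclin common in epithelial cells, had 154, 154 and 146 CPM in Lipo-TriTE, 155, 196 and 202 CPM in Lipo-BiTE, and 250.1, 258 and 251.4 CPM in PBS libraries, and was called lower in both treated groups. Ccnd3, the D-type cyclin that acts with Ccnd2 in lymphocytes, had 205, 152 and 122 CPM in Lipo-TriTE, 214, 149 and 132 CPM in Lipo-BiTE, and 79.5, 108 and 97.2 CPM in PBS libraries, and was called higher in both. The kinase partner Cdk4 had 179, 225 and 218 CPM in Lipo-TriTE, 203, 231 and 269 CPM in Lipo-BiTE, and 344, 313 and 289 CPM in PBS libraries, with no treated library at the level of PBS, and was called lower in Lipo-TriTE. Cdkn2d (p19), an inhibitor of Cdk4 and Cdk6, had 69.5, 64.9 and 52.2 CPM in Lipo-TriTE, 61.7, 31.2 and 32.0 CPM in Lipo-BiTE, and 15.4, 24.3 and 19.1 CPM in PBS libraries, and was called higher in both.

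The E2F family moved in both directions. E2f2 had 60.5, 39.1 and 28.8 CPM in Lipo-TriTE, 43.3, 29.6 and 25.5 CPM in Lipo-BiTE, and 11.3, 18.3 and 18.8 CPM in PBS libraries, and was called higher in both treated groups, in contrast to E2f1. The repressor E2f8 had 30.7, 38.4 and 32.0 CPM in Lipo-TriTE, 39.8, 37.5 and 58.8 CPM in Lipo-BiTE, and 62.4, 71.8 and 72.9 CPM in PBS libraries, and was called lower in both. The related E2f7 averaged 12.9 ± 1.74 CPM in Lipo-TriTE, 18.1 ± 4.68 CPM in Lipo-BiTE and 27.8 ± 4.37 CPM in PBS (SD, n = 3 each).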
